A study of Mus musculus with 7 samples.

Results

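The genes described here are 8 mouse genes known for holding T cells in rest or for slowing their division: Btg1, Btg2, Tob1, Txnip, Pik3ip1, Tsc22d3, Slfn2 and Cdkn1b. They were taken as every non-control probe of the microarray whose gene name equals one of these symbols, which gave 12 probes out of 55681, all of them well above background on all 7 arrays. RNA came from 7 samples of lymph node lymphocytes with the transgenic OT-1 receptor, specific for the ovalbumin peptide SIINFEKL. All 7 were OT-1het on a Rag-/- background, so that CD8 T cells bear the transgenic receptor, and all were cultured for 24 h with 100 nM of the peptide. The 4 WT samples carried no further label. The other 3 are labelled Lck-/-, for the cytoplasmic Src-family kinase that starts signalling below the T cell receptor. They are described as having had a knocked-in Lck removed by 7 days without doxycycline in the diet. Whether the WT mice carried that construct or ate doxycycline, what drives it, how old the mice were and whether RNA was pooled were not given in the sources used here. Samples of both groups are called biological replicates by the series.

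A resting T cell is kept small and undivided by active transcription programmes. FOXO and KLF transcription factors maintain many of the genes involved, and signalling through the T cell receptor, PI3K and AKT turns FOXO factors off. The 8 genes act at different points. Btg1, Btg2 and Tob1 belong to the BTG/TOB family, whose proteins recruit the CCR4-NOT deadenylase to messenger RNA. Txnip binds thioredoxin and limits glucose uptake. Pik3ip1 is a membrane protein that restrains PI3K. Tsc22d3 encodes GILZ, a glucocorticoid-induced leucine zipper protein. Slfn2 is a Schlafen protein needed for T cell quiescence. Cdkn1b encodes p27, an inhibitor of cyclin-dependent kinases that is degraded as T cells enter the cell cycle.

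Values are log2 of the processed spot signal minus the 75th percentile of the same array, so that 0 is the 75th percentile. Each array was labelled with Cy3 in 1 colour, and the share of spots well above background ran from 46.6% to 61.1%. All 10 markers of CD8 T cells, among them Cd3d, Cd8a and Cd8b1, were well above background on all 7 arrays. Of 8 B cell markers, 5 were above background on some array and 3, Cd79a, Cd79b and Cd22, on all 7, while Ms4a1 and Ebf1 were above it on none. Their summed level (log2) was 0.27 to 1.18 in WT and 1.01 to 1.36 in Lck-/-, and the 3 that were tested had positive differences, with a median of 0.48. The highest WT sum, on WT 2, holds a single high Blk reading of -0.36, against -7.04 to -3.97 on the other arrays. The lowest, on WT 3, lacks Cd79a, which had no value there. The part of the B cell markers in the results below was not tested. Lck itself did not part the groups as labelled. Its level was 7.44, 7.67, 7.36 and 6.04 on WT 1 to WT 4. In the Lck-/- group it was 8.02, 6.21 and 6.17, so that the library labelled Lck-/- 1 was the highest and the library labelled WT 4 the lowest. Which part of Lck is deleted is not given, and a probe outside that part would check nothing. All directions below compare libraries as they are labelled.

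None of the 8 genes passed the threshold between Lck-/- and WT. With limma, 0 of 16474 genes had an adjusted p under 0.05, which is a background of 0%. At an unadjusted p under 0.05, 1 of the 8 genes was higher, Tsc22d3, against a background of 5.03% of all genes that were higher, 2.02% that were lower and 7.05% in either direction (1162 genes). The groups did not overlap for the same 1 gene, against 7.34% of all genes in either direction, 5.34% higher and 2% lower. A single gene of 8 is not read here as a result about the set. The 8 differences ran from -0.28 to 0.60, 3 of them positive and 5 negative, with a median of -0.02 against 0.05 over all genes. Over all genes 59.2% of differences were positive on this scale, the share beside which the sign counts of the gene lists below stand. The share of genes with an unadjusted p under 0.05 that were higher was 71.3%, but this split depended on the scaling. Quantile normalization gave 57.2%, normexp 56.9% and the deposited values 49.6%. Using each array's median as reference gave 23.5%, and there the median over all genes was -0.15. With both doubted libraries left out, Lck-/- 1 and WT 4, limma called 54 genes, none of them among the 8, and with WT 1 left out it called 2.

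**Figure D1:**
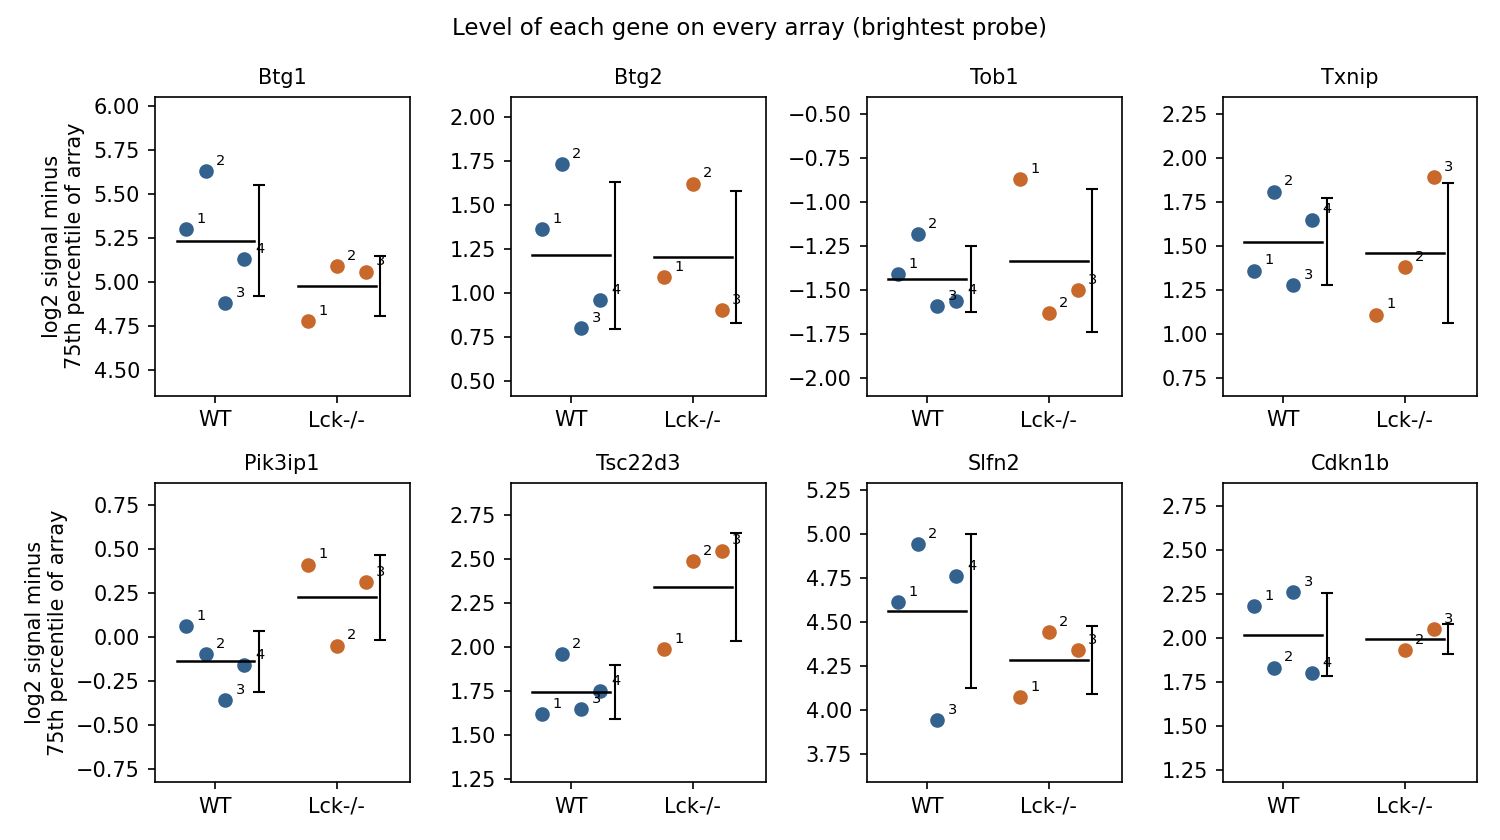
Level of each of the 8 genes on every array (y axis: log2 processed signal minus the array's 75th percentile, each panel spanning the same height), by labelled group. Points are single arrays with their replicate number, horizontal lines are group means and error bars show 1 SD. Tsc22d3 is the panel in which the 3 Lck-/- points, from 1.99 to 2.55, lie above all 4 WT points, from 1.62 to 1.96.

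Tsc22d3 had the largest difference among the 8 genes. Its probe lies on mm9 chromosome X, 137074094 to 137074153, on the minus strand. The oligonucleotide begins with these 30 of its 60 bases, shown because every value of the gene rests on this 1 probe:
Tsc22d3 probe: ctgctgtacgactccaggatttggatttgg
Its WT levels, in the order of the replicate numbers, were 1.62, 1.96, 1.65 and 1.75. Its Lck-/- levels were 1.99, 2.49 and 2.55. The lowest Lck-/- value was thus just above the highest WT value, while Lck-/- 2 and Lck-/- 3 stood well above. The means were 1.74 ± 0.16 (SD, n = 4) and 2.34 ± 0.30 (SD, n = 3), so that Lck-/- minus WT was 0.60 (SE 0.18, 95% confidence interval 0.18 to 1.02), or 1.52-fold. The difference lay at the 90.6th percentile of all genes by size, and it did not pass over all genes (limma unadjusted p = 0.0108, adjusted p = 0.637).

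The separation of Tsc22d3 ended under 1 scaling. With the median as reference, the values were 5.98, 6.19, 5.95 and 5.91 in WT and 5.72, 6.71 and 6.79 in Lck-/-. Lck-/- 1 then became the lowest of all 7 arrays and the groups overlapped. This reference shifts all genes of an array by the same amount. Relative to the other arrays it lowered Lck-/- 1 the most, the array with the largest share of spots above background, 61.1%. Other changes reported with the median as reference hold the same shift. The Tsc22d3 difference was 0.39 (SE 0.28, limma unadjusted p = 0.187). With quantile normalization, normexp and the deposited table the groups did not overlap, and the differences were 0.62, 0.59 and 0.58. It was 0.77 without Lck-/- 1, 0.78 without both doubted libraries, and 0.50 to 0.67 without any other single array. Over 19 alternatives the sign was positive in all and the adjusted p ran from 0.206 to 0.998.

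**Figure D2:**
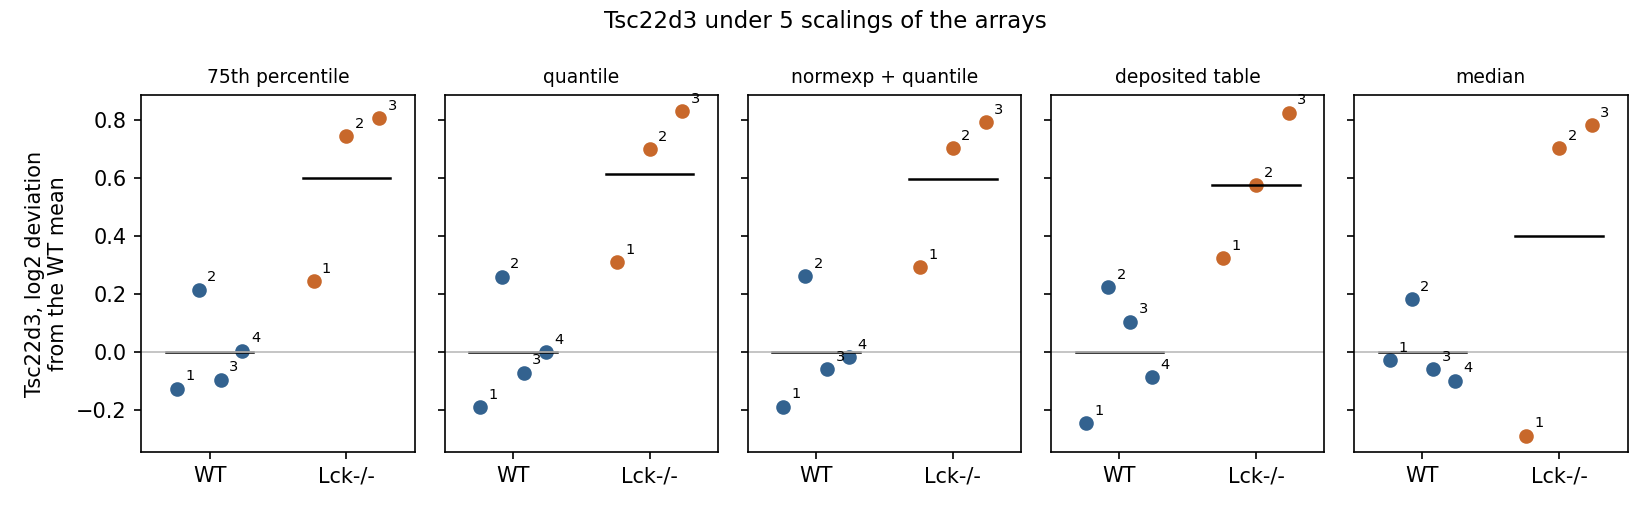
Tsc22d3 on every array under 5 scalings (y axis: log2 deviation from the WT mean under that scaling), points numbered by replicate, lines showing group means. Lck-/- 2 and Lck-/- 3 lie above every WT array in each panel, while Lck-/- 1 lies above them in 4 panels and below them with the median as reference.

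Lck-/- 2 and Lck-/- 3, with the highest Tsc22d3 signal, also had the lowest mitosis signal. The other arrays did not keep this order: Lck-/- 1, the next highest for Tsc22d3, lay above WT 2 and WT 4 in mitosis signal. The mean of 22 mitosis genes, relative to WT, was -0.55, -1.45 and -1.47 on Lck-/- 1 to Lck-/- 3, and 0.85, -0.61, 0.44 and -0.68 on WT 1 to WT 4. All 22 tested mitosis genes had negative differences, 16 with an unadjusted p under 0.05 and 0 past the adjusted threshold. Their median was -1.11. Their part in the Tsc22d3 difference was not tested. The NK cell markers, 12 of 12 above background on some array and 6 on all 7, had a summed level (log2) of 1.57 to 3.77 in WT and 3.03 to 4.48 in Lck-/-. All 12 NK markers had positive differences (59.2% over all genes), 1 of them with an unadjusted p under 0.05. Their median was 1.15, with 0.66 to 1.71 when 1 array was left out. The summed level lacks Fcer1g on WT 3, its lowest array. It includes Eomes and Gzma, which activated CD8 T cells are also known to make. Eomes read 0.39, -0.33, 0.07 and 0.97 in WT and 1.53, 2.41 and 2.67 in Lck-/-, with no overlap and a difference of 1.93 (SE 0.37, limma unadjusted p = 0.000799, adjusted p = 0.594). Ncr1 and Klrb1c, defining receptors of NK cells, were above background on 2 of 4 WT and 3 of 3 Lck-/- arrays. Lck-/- 2 had the highest NK marker mean, 2.15 above the WT mean, with Tsc22d3 at 0.74 relative to the WT mean. WT 4, a doubted library, had the second highest NK marker mean, 1.65 above the WT mean, with Tsc22d3 at 0.00. In a fit that also held the NK markers' mean, the Tsc22d3 difference was 0.51 (SE 0.21, limma adjusted p = 0.896). That mean includes Eomes, whose groups did not overlap, and it lacks Fcer1g on WT 3, where that gene had no value. The part of NK cells in the Tsc22d3 difference is therefore not settled by this fit. The dendritic cell and macrophage markers, 14 of 15 above background on some array and 10 on all 7, had a summed level of 4.18 to 4.97 in WT and 4.91 to 5.19 in Lck-/-, with Xcr1 above background on none. Their part was not tested. In cultures such as these, fewer cells of a type and less RNA per cell cannot be told apart.

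**Figure D3:**
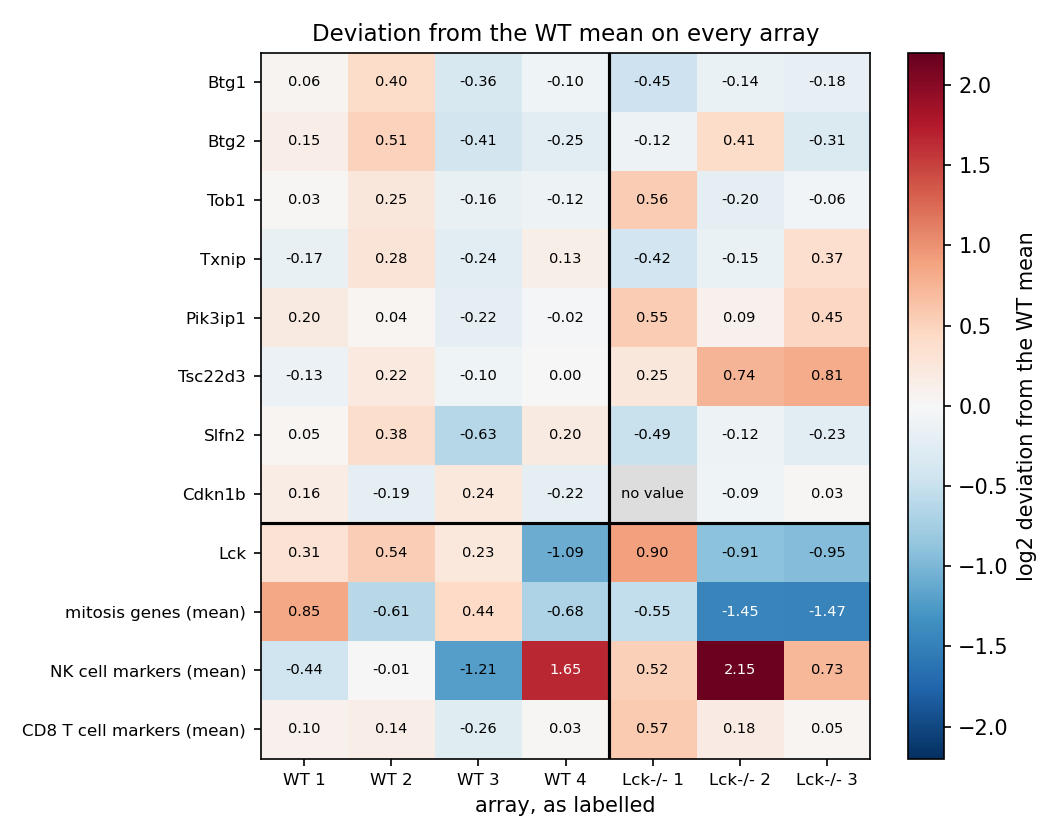
Deviation from the WT mean (colour and printed value, log2) of the 8 genes, of Lck and of the means of 3 gene lists, for every array as labelled. Lck-/- 2 and Lck-/- 3 share high Tsc22d3 (0.74 and 0.81) and low mitosis means (-1.45 and -1.47), and Lck-/- 1 has no Cdkn1b value.

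Genes related to Tsc22d3 gave no shared direction. Of 11 genes of the TSC22 family and of glucocorticoid response, 10 were tested, 5 with positive and 5 with negative differences, and 0 had an unadjusted p under 0.05. Their median was 0.06, with -0.02 to 0.12 when 1 array was left out (lowest without Lck-/- 3, highest without WT 2), and -0.15 with the median as reference. Fkbp5, a glucocorticoid-induced chaperone gene, read 3.90, 3.70, 3.70 and 3.79 in WT and 4.06, 3.98 and 3.91 in Lck-/-. Its groups were parted by a narrow margin, with a difference of 0.21 (SE 0.13). Ddit4, which inhibits mTORC1, differed by 0.47 (SE 0.29). Only Lck-/- 1, at 7.52, lay above its WT range of 6.02 to 6.82, with Lck-/- 2 and Lck-/- 3 at 6.56 and 6.66. The glucocorticoid receptor gene Nr3c1 and its target Per1 differed by -0.04 (SE 0.18) and -0.03 (SE 0.18).

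Pik3ip1 came next by size. Its brighter probe (mm9 chromosome 11, 3242107 to 3242166) read 0.06, -0.10, -0.36 and -0.16 in WT and 0.41, -0.05 and 0.31 in Lck-/-. Lck-/- 1 and Lck-/- 3 stood above every WT array and Lck-/- 2 lay within the WT range. The means were -0.14 ± 0.18 (SD, n = 4) and 0.22 ± 0.24 (SD, n = 3), so that Lck-/- minus WT was 0.36 (SE 0.17, 95% confidence interval -0.03 to 0.76, limma unadjusted p = 0.0669, adjusted p = 0.723). The other probe (3233674 to 3233733) was highest on Lck-/- 1, at -2.32, and lay between -3.30 and -2.89 on the other 6 arrays. Its difference was 0.27 (SE 0.21). The sign held in 20 of 20 alternatives, with differences from 0.16 with the median as reference to 0.50 without Lck-/- 2. It was 0.26 without both doubted libraries.

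Genes listed for the PI3K pathway, which Pik3ip1 restrains, had small differences with no stable sign. Of 15 tested, 12 differences were positive (59.2% over all genes) and their median was 0.07. It was 0.15 without WT 1 or Lck-/- 3. That value turned to -0.14 on the median-referenced scale, -0.03 without both doubted libraries and -0.01 without WT 3. The list also counts Pdk1, which differed by 0.14 (SE 0.28). That symbol names a pyruvate dehydrogenase kinase, while the kinase of the PI3K pathway is Pdpk1, which differed by -0.27 (SE 0.17). Only Pik3cd, the catalytic subunit p110 delta, had an unadjusted p under 0.05. It read 6.12, 5.87, 5.77 and 6.20 in WT and 6.92, 6.26 and 6.31 in Lck-/-, and differed by 0.51 (SE 0.21, limma unadjusted p = 0.041, adjusted p = 0.7). The kinase gene Akt1 differed by 0.19 (SE 0.23), and only Lck-/- 1, at 6.45, lay above its WT range of 5.46 to 5.87.

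Btg1, Btg2 and Tob1 showed no common direction. The brighter Btg1 probe (mm9 chromosome 10, 96082071 to 96082130) read 5.30, 5.63, 4.88 and 5.13 in WT and 4.78, 5.09 and 5.06 in Lck-/-. The 3 Lck-/- values fell within or just below the lower part of the WT range. The difference was -0.26 (SE 0.20, 95% confidence interval -0.72 to 0.21, limma adjusted p = 0.848). It was -0.12 without WT 2, -0.16 without Lck-/- 1, -0.37 without WT 3 and -0.46 with the median as reference. A second Btg1 probe (96085358 to 96085417) ran from 0.15 on WT 1 to 0.70 on WT 2, with 0.31 to 0.66 in Lck-/-, and differed by -0.01 (SE 0.18). The 2 probes thus gave unlike sizes and ordered the arrays differently: WT 1 was the second highest array for the first and the lowest for the second. Their first 30 bases are shown because the size of the difference depends on which is read:
Btg1 brighter probe: gagtctttcccacaaaccaccatctatttt
Btg1 other probe: gcagctttaaatcagtcggatttatgaata

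Btg2, on mm9 chromosome 1, 135972094 to 135972153, read 1.36, 1.73, 0.80 and 0.96 in WT and 1.09, 1.62 and 0.90 in Lck-/-. Arrays of both groups were spread over the same range, 0.80 to 1.73. The difference was -0.01 (SE 0.27), with a 95% confidence interval of -0.63 to 0.61 that still allows about 1.5-fold either way. Tob1, on chromosome 11, 94075956 to 94076015, read -1.41, -1.18, -1.59 and -1.56 in WT and -0.87, -1.63 and -1.50 in Lck-/-. Lck-/- 1 was the highest and Lck-/- 2 the lowest of all 7 arrays. The difference was 0.10 (SE 0.21, 95% confidence interval -0.39 to 0.60), and -0.13 without Lck-/- 1. It was -0.17 without both doubted libraries and -0.10 with the median as reference.

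**Figure D4:**
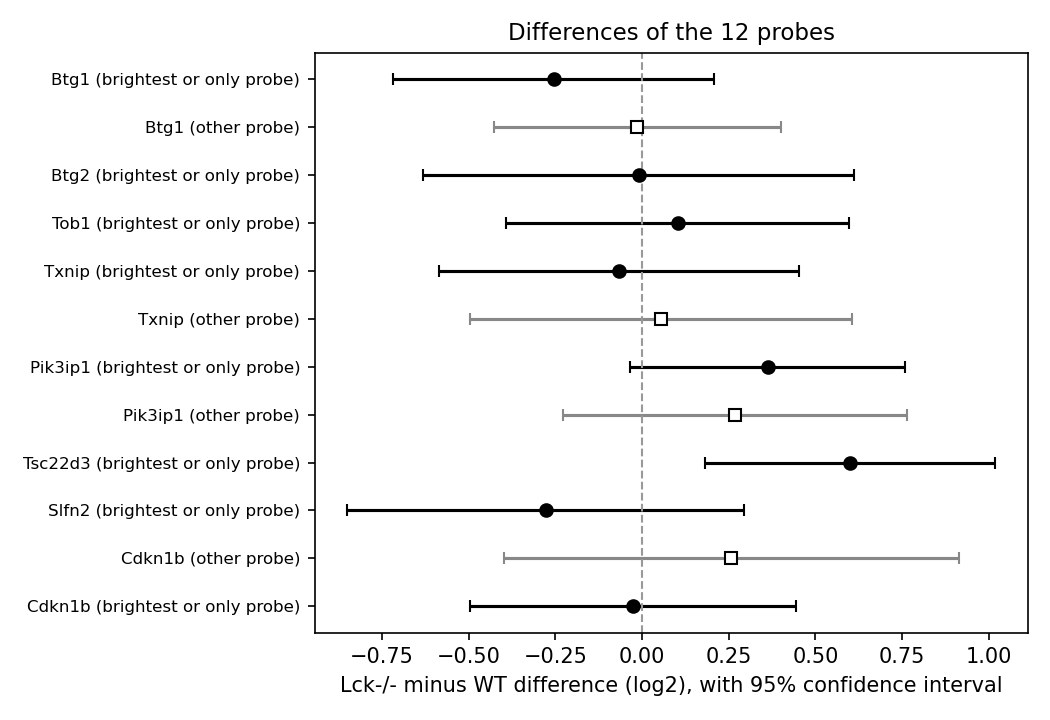
Lck-/- minus WT difference (x axis, log2) of each of the 12 probes with its 95% confidence interval from limma over all probes. Filled circles are the brightest or only probe of a gene and open squares the other probe. The interval of Tsc22d3, 0.18 to 1.02, is the only one that leaves out 0.

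Partners of the BTG/TOB proteins differed little. Of 17 listed relatives and subunits of the deadenylases, 16 were tested, 11 with negative and 5 with positive differences, and a median of -0.09. The median was -0.29 with the median as reference, -0.21 without Lck-/- 2 and -0.16 without WT 3. It was -0.03 without Lck-/- 1, where 8 differences were positive and 8 negative, -0.03 without both doubted libraries and -0.04 without Lck-/- 3. Cnot6l, a catalytic deadenylase subunit, read 4.13, 4.36, 4.06 and 4.07 in WT and 3.72, 3.70 and 3.96 in Lck-/-. The groups did not overlap, with a difference of -0.36 (SE 0.14, limma unadjusted p = 0.0385, adjusted p = 0.7). The family member Btg3 differed by 0.09 (SE 0.22), Tob2 by -0.09 (SE 0.20) and the poly(A)-binding protein gene Pabpc1 by 0.26 (SE 0.17).

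Txnip varied within each group as much as between them. Its brighter probe (mm9 chromosome 3, 96365147 to 96365206) read 1.36, 1.81, 1.28 and 1.65 in WT and 1.11, 1.38 and 1.89 in Lck-/-. Both the lowest and the highest array, Lck-/- 1 and Lck-/- 3, carried the same label. The difference was -0.07 (SE 0.22, 95% confidence interval -0.59 to 0.45, limma adjusted p = 0.982). The other probe (96364206 to 96364265) read -0.96, -0.35, -1.02 and -0.42 in WT and -0.63, -0.95 and -0.31 in Lck-/-, a difference of 0.05 (SE 0.24). Both probes had WT 2, WT 4 and Lck-/- 3 as their 3 highest arrays. Their first 30 bases follow, since these 2 probes ordered their top arrays alike:
Txnip brighter probe: ctaaggtgatgttcttagcactttagcttg
Txnip other probe: tggacgactctcaagacagccctatcttta

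Of 13 genes related to Txnip, 9 had positive differences, with a median of 0.14. The median was 0.28 without Lck-/- 3, 0.08 without WT 3 and -0.06 with the median as reference. None had an unadjusted p under 0.05. Txn1, the thioredoxin that Txnip binds, differed by 0.23 (SE 0.15), and the mitochondrial Txn2 by 0.25 (SE 0.20). Txn2 read 7.32 on Lck-/- 1, against 6.60 and 6.56 on Lck-/- 2 and Lck-/- 3 and 6.49 to 6.63 in WT. The glucose transporter genes Slc2a1 and Slc2a3 differed by 0.35 (SE 0.28) and 1.06 (SE 0.54). Slc2a3 read 5.10 on Lck-/- 1, a doubted library, against 2.63 and 3.17 on Lck-/- 2 and Lck-/- 3. Its WT values ran from 2.33 to 3.07. Arrdc4, an arrestin-domain relative of Txnip, differed by -0.62 (SE 0.51).

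Slfn2, on mm9 chromosome 11, 82883791 to 82883850, read 4.61, 4.94, 3.94 and 4.76 in WT and 4.07, 4.44 and 4.34 in Lck-/-. WT 3 was the lowest of all arrays, and all 3 Lck-/- arrays lay below the other 3 WT arrays. The means were 4.56 ± 0.44 (SD, n = 4) and 4.28 ± 0.19 (SD, n = 3), so that Lck-/- minus WT was -0.28 (SE 0.25, 95% confidence interval -0.85 to 0.30, limma adjusted p = 0.872). Without WT 3 the difference was -0.49 (SE 0.16, limma unadjusted p = 0.0219, adjusted p = 0.747), and without WT 2 it was -0.15. It was -0.53 in the fit with the NK markers' mean, which includes Eomes and lacks Fcer1g on WT 3. The Slfn2 difference was -0.48 with the median as reference, and without both doubted libraries -0.11.

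The other Schlafen genes had a positive median. Of 8 listed, 5 were tested, 4 with positive differences, and their median was 0.62. It was -0.11 with no background filter, which adds 3 dim genes. Slfn1, also linked to restraint of T cell growth, read -1.07, -0.70, -1.54 and -0.87 in WT and -0.69, -0.02 and 0.18 in Lck-/-. Lck-/- 1 was just above the highest WT array, and the difference was 0.87 (SE 0.27, limma unadjusted p = 0.013, adjusted p = 0.642). Slfn9 and Slfn8 differed by 0.62 (SE 0.24) and 0.66 (SE 0.31), and Slfn5 by -0.30 (SE 0.19). Schlafen genes are close paralogs, so a probe may read more than 1 of them.

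Cdkn1b was read by 2 probes of mm9 chromosome 6. The brighter (134875424 to 134875483) read 2.18, 1.83, 2.26 and 1.80 in WT and 1.93 and 2.05 on Lck-/- 2 and Lck-/- 3. The spot of Lck-/- 1 was marked as an outlier by the scanner software and was left out, so that n = 2 there. Both Lck-/- values lay inside the WT range. The difference was -0.03 (SE 0.20, 95% confidence interval -0.49 to 0.44, limma adjusted p = 0.992). The dimmer probe (134873606 to 134873665) read -2.64, -3.72, -2.60 and -3.05 in WT and -2.50, -2.93 and -2.81 in Lck-/-, a difference of 0.26 (SE 0.28), with WT 2 the lowest. Among the arrays with a value for both probes, WT 3, WT 1 and Lck-/- 3 were the highest for each, in that order. The mean of both probes gave -0.63 (SE 0.51), because the dimmer probe alone then stood for Lck-/- 1. Their first 30 bases are shown for that reason:
Cdkn1b brighter probe: gtgcttaaaaggttgcatactgagccaagt
Cdkn1b other probe: attagccaagcaaccataagactctagtca

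The list that joins other CDK inhibitors with genes of p27 turnover was mostly negative in sign, though the inhibitors themselves were not all so. Of 16 listed, 14 were tested, 11 with negative differences and a median of -0.21. It was -0.41 with the median as reference, -0.07 without Lck-/- 3, -0.10 without WT 1 and -0.35 without both doubted libraries. Ccna2, the cyclin A gene that is switched on as cells pass into S phase, read 4.71, 3.59, 4.09 and 3.22 in WT and 3.35, 2.62 and 2.42 in Lck-/-. The difference was -1.11 (SE 0.38, limma unadjusted p = 0.0194, adjusted p = 0.65), and it was the only gene of the list with an unadjusted p under 0.05. Skp2, which marks p27 for degradation, differed by -0.36 (SE 0.17), its cofactor Cks1b by -0.35 (SE 0.34), Ccne1, the cyclin E1 gene, by -0.07 (SE 0.19), and Cdkn1a, which encodes p21, by -0.21 (SE 0.40). Cdkn2b and Cdkn1c, each above background on 6 arrays, had positive differences of 1.08 (SE 0.59) and 0.18 (SE 0.28). Cdkn2c, Cdkn2d and Cdkn3 differed by -0.52 (SE 0.32), -0.20 (SE 0.23) and -1.24 (SE 0.66).

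FOXO and KLF factors and their targets were positive in sign for 20 of 26 genes tested, with a median of 0.13 that became -0.07 with the median as reference and 0.22 without both doubted libraries. The chemokine receptor gene Ccr7 differed by 0.47 (SE 0.21) and the forkhead factor gene Foxp1 by 0.31 (SE 0.21). For Foxp1 only Lck-/- 1, at 6.83, lay above the WT range of 5.84 to 6.25. The quiescence factor Klf2 differed by 0.06 (SE 0.36) and Foxo1 by 0.13 (SE 0.15), both with groups that overlapped.

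**Figure D5:**
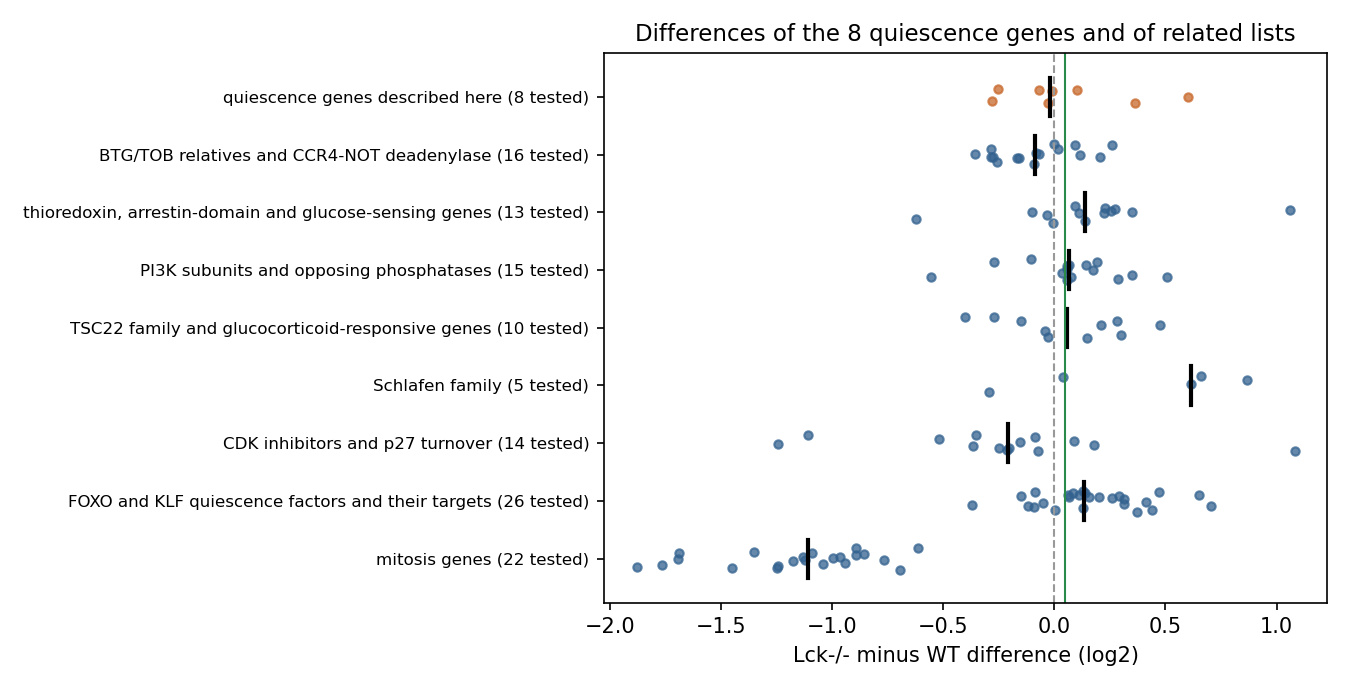
Lck-/- minus WT differences (x axis, log2) of the 8 quiescence genes and of the tested genes of each related list, 1 point per gene, with black bars at the medians. The green line is the median of all genes, 0.05. The 8 genes scatter from -0.28 to 0.60 around a median of -0.02, and the mitosis genes lie below 0.

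Within WT, the same arrays were often highest or lowest. WT 2 was the highest WT array for 6 of the 8 genes under each of 5 scalings, while it was the highest for 22.1% to 30.4% of all genes. WT 3 was the lowest WT array for 6 of the 8, as it was for 49.3% of all genes, and for 2 of the 8 in the deposited table (25.7% of all genes). The range over the 7 arrays was 0.46 for Cdkn1b, on 6 arrays, and between 0.76 and 1.00 for the other 7 genes, against a median of 0.72 over all genes.

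Genes whose values followed each of the 8 most closely were found among 13531 genes above background on all 7 arrays, by Pearson's r as a description over the same 7 arrays. Since each is the best of so many, no p is given. For Tsc22d3 they were Hcst (r = 0.98, Spearman's rho = 0.964) and Fam214b (r = 0.972, rho = 0.964), which differed by 0.41 (SE 0.15) and 0.60 (SE 0.19). For Slfn2 they were Tagap1 (r = 0.997) and Mnt (r = 0.996). For Btg1 they were Ctdsp2 and Shld1 (r = 0.989 for both), for Btg2 Pld3 and Glmp (r = 0.993 for both), and for Tob1 Gm5561 (r = 0.996) and Cox5a (r = 0.992). For Txnip they were Norad (r = 0.971) and Hdhd2 (r = 0.957). Cdkn1b, over 6 arrays, was nearest to Abhd18 (r = 0.995) and Gm8709 (r = 0.973). Pik3ip1 was nearest to a transcript named only by an Ensembl identifier (r = 0.961) and to 5430411C19Rik (r = 0.96).

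The sequence just upstream of the genes was searched for short motifs, as FOXO factors are known to act on several of these promoters. RefSeq promoter windows (GRCm38.p6) were found for all 8 genes, 10 windows in all because Tsc22d3 has 3 starts, and their 250 bases before the start were read on both strands. The forkhead letters GTAAACA were in 2 of the 10 windows, those of Btg1 and Txnip, and in 3.17% of all 32851 windows. The letters CCAAT were in 6 of the 10 (33.8% of all windows), the GC box GGGCGG in 7 of the 10 (32.7%), and the E-box CACGTG in 0 of the 10 (6.02%). The windows of Btg1 and Txnip are shown with the forkhead letters in capitals (read on the minus strand in Btg1, TGTTTAC). The window of the first listed Tsc22d3 start is shown with its GC box in capitals, because Tsc22d3 is the gene whose groups did not overlap and it holds no forkhead letters there.
Btg1, chr10:96616751-96617000, plus strand: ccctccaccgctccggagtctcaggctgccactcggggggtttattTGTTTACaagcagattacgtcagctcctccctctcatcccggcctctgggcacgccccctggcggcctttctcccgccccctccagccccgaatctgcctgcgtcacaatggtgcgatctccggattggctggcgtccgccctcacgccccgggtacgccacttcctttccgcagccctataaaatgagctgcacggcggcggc
Txnip, chr3:96557807-96557956, plus strand: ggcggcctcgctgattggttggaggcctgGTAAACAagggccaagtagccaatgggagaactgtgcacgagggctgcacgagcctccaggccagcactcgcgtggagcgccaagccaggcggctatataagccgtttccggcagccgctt
Tsc22d3, chrX:140542669-140542818, minus strand: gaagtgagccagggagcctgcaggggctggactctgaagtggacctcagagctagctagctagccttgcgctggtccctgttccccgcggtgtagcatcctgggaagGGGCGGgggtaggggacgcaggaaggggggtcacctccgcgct
Both genes with the forkhead letters had negative differences, -0.26 for Btg1 and -0.07 for Txnip, each with a confidence interval that includes 0.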

How the data were processed

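The authors deposited Agilent scanner files with spot intensity, made with Feature Extraction 10.7.3.1 per the file headers, and a table of log2 values. Its normalization was not given in the sources used here, but limma is named per the submitters' processing notes. Per the labels' protocols, 50 ng of RNA with an integrity number above 8 was labelled. Each processed intensity was taken to log2 and the array's 75th percentile over 59305 non-control spots subtracted. Spots flagged as outliers were left out, probes above background on at least 3 of 7 arrays were kept, and a gene was represented by its brightest probe. Of 55681 probes, 27235 were named by accession, 3581 by symbol, 565 by synonym (RefSeq, GRCm38.p6), 5362 kept the file's name, and 18938 without one were left out. This left 16474 genes, 788 lacking a value. Groups were compared with limma 3.58.1 in R 4.3.3 (lmFit, eBayes, two-sided, Benjamini-Hochberg over all genes, threshold 0.05). The procedure was tested on simulated data with 4 and 3 arrays and 15686 genes. At the adjusted threshold it recovered 46% of 100 changes of 1 log2 unit and 87% of 100 changes of 2 log2 units. It also made 10 false calls. The simulated noise was drawn separately for each gene and array, so it held no variation shared across genes. The number of arrays limits the precision, and all lay on 1 slide.

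The 8 genes and the related lists were chosen with earlier results of these data known. From each list, genes past the threshold are named, or else up to 3 with the smallest unadjusted p under 0.05 and 2 with the highest mean signal. Others named were chosen after their values were seen. Some genes of these lists are not reported here. A comparison of protein sequences that had been planned was not done here. Alternatives were other scalings, background corrections and filters, the deposited table, the mean of probes, array weights, a block for title number or for slide row, a covariate made of the NK markers, and leaving out arrays.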

Additional observations from a re-analysis of the deposited data

Results flagged for a closer look

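No probe of the 8 genes had a WT array that stood far from the other 3. Of 25 probes, list means and Lck checked in this way, 2 list means did, and chance flags about 1 in 20 groups. The mean of the TSC22 family and glucocorticoid-responsive genes was 0.19 above the WT mean on WT 2, against -0.08 to -0.05 on the other 3 WT arrays, a gap of 0.857 of the whole WT range. The mean of the Schlafen genes was -0.25 on WT 3, against 0.05 to 0.10 on the other 3, a gap of 0.861 of the range. Both exceed Dixon's critical value for 4 samples.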

How the results depend on the processing

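No alternative gave any of the 8 genes an adjusted p under 0.05. Over the other settings the count of genes past the threshold stayed at 0, except 54 (33 higher and 21 lower) without both doubted libraries and 0 to 2 over the settings that each left out 1 array. Genes with an unadjusted p under 0.05 numbered 744 to 1504 when 1 array was left out, lowest without Lck-/- 3, and 835 to 1724 otherwise. With the replicate block, the title number shared by both groups, there were 1681. Arrays with the same title number deviated together at correlations of only 0.089, 0.054 and -0.025 across genes. Between WT and Lck-/- arrays of unlike number the correlations ran from -0.415 (WT 3 with Lck-/- 2) to 0.392 (WT 3 with Lck-/- 1). The title numbers were therefore not taken as pairs, and the block changed no call among the 8. The scanner output numbers the Lck-/- arrays differently from the titles, and a block by that numbering was not tried. The median of the 8 genes stayed between -0.16 and 0.09. Btg1, Pik3ip1, Tsc22d3 and Slfn2 kept their sign under every alternative, Btg1 from -0.46 to -0.01, the last with its other probe. Btg2 was 0.01 with the deposited table and 0.02 with slide row as block, and ran from -0.22 to 0.16 without 1 array, positive without WT 1, WT 2, Lck-/- 1 or Lck-/- 3. Tob1 was -0.10 with the median as reference, -0.17 without both doubted libraries and ran from -0.13, without Lck-/- 1, to 0.25 without 1 array. Txnip was 0.07 with array weights, 0.15 without both doubted libraries, 0.05 with the other probe, and ran from -0.28 to 0.11 without 1 array, positive without WT 2 or Lck-/- 1. Cdkn1b was 0.04 with array weights, 0.19 with the NK covariate, 0.26 with the other probe, and ran from -0.10 to 0.05 without 1 array, positive without WT 1, WT 3 or Lck-/- 2. The cause of these sign changes was not tested, and each lay within its error. All 12 probes were well above background on all 7 arrays.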
